A study of Homo sapiens with 14 samples.

Results

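The integrated stress response and the unfolded protein response were followed here through 43 genes, chosen by name for their known function, of the 19923 protein-coding genes counted in each library. The choice was made with earlier results of these data known, so the shares of members called below are a description. All 43 were found in the count tables. They comprised 13 transcription factors and feedback genes of the integrated stress response, 6 genes of amino acid synthesis, 6 amino acid transporters, 4 genes that sense stress in the endoplasmic reticulum (ER) or carry its signal, and 14 ER chaperones, folding enzymes and genes of ER-associated degradation (ERAD). The series holds 14 RNA-seq libraries, all from the neuroblastoma cell line SK-N-BE2, which carries MYCN amplification and was grown in RPMI1640 with serum. In batch 1, cells with no genetic change named in the labels received water (H2O), 10 µM cobalt chloride (CoCl2) or 50 µM CoCl2, and in batch 2 untreated cells were labelled wild type (WT) or TET2 knockout 1, 2 or 3, with 2 libraries in each of the 7 groups. CoCl2 is a cobalt salt used to stabilise hypoxia-inducible factors, and the product of TET2 turns methylated cytosine in DNA into its hydroxylated form. Labels give neither the exposure time, nor how the knockouts were made, nor whether each number is a single clone, nor whether the 2 libraries of a group came from separate cultures, so the p-values measure only the spread between these libraries.

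Background to these genes is as follows. The integrated stress response starts when a kinase (PERK for unfolded protein in the ER, GCN2 for uncharged tRNA, HRI for haem shortage or mitochondrial stress, PKR for double-stranded RNA) phosphorylates the translation factor eIF2. Bulk protein synthesis then slows while ATF4 mRNA is translated more, and ATF4 induces genes of amino acid synthesis, amino acid uptake and tRNA charging, other transcription factors such as DDIT3 (CHOP), and feedback genes such as PPP1R15A (GADD34). The unfolded protein response runs through PERK, IRE1 (gene ERN1) and ATF6, of which IRE1 splices XBP1 mRNA, and it raises ER chaperones and ERAD genes. In neuroblastoma, MYCN is known to sustain serine, glycine and glutamine metabolism together with ATF4. Counts of mRNA per gene carry no information on eIF2 phosphorylation, on ATF4 protein or on XBP1 splicing.

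Levels are in CPM, counts scaled to a common normalised library total within a batch. Fold changes (log2 change where on the log2 scale) and p-values come from edgeR's quasi-likelihood test fitted within each batch. The p-values are adjusted over all genes tested (Benjamini-Hochberg), and a gene is called at an adjusted p under 0.05. A standard error (SE) here is the absolute log2 change divided by the square root of the F statistic of that test. Libraries of batch 1 held 31214128 to 39540111 counts. Those of batch 2 held 52095024 to 59263320, where 77.3 to 80.5% of the low counts were even, so that a count may not stand for the same unit in the 2 batches. The lowest member count in any library was 12 in batch 1 and 2 in batch 2, both for NUPR1, and the next lowest were 180 (ATF5) and 165 (SLC6A9). All 43 members were tested in batch 1, and 42 in batch 2, where NUPR1 fell below the count filter. All 13 adrenergic neuroblastoma markers were counted in every group, and 5 leukocyte markers together came to at most 0.375 CPM.

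Abundance differed widely within the set. Per kilobase of exon, mean levels in H2O were highest for the calcium-binding chaperone CALR (233 CPM per kilobase), the ER form of HSP90, HSP90B1 (180), the mTORC1 inhibitor DDIT4 (148), the HSP70-type chaperone HSPA5, also called BiP (126), and ATF4 (111). The lowest were NUPR1, a small stress-induced chromatin protein (0.0692 CPM per kilobase), ERN1 (1.05) and the ER resident CRELD2 (1.55). In WT, CALR was again highest (283 CPM per kilobase) and NUPR1 lowest (0.0255).

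Promoter sequence was examined because ATF4, ATF6 and XBP1 act through known DNA motifs. RefSeq promoter windows (GRCh38.p14) were found for 40 of the 43 members, and the 250 bases before each start were searched on both strands for 4 exact motifs. The C/EBP-ATF response element bound by ATF4 dimers, TGATGNAAN, lay in 6 of 40 members (15.0%). It lay in 1057 of all 27305 genes with a window (3.87%), a set wider than the 19923 genes counted. The ER stress response element, CCAAT and CCACG with 9 bases between, lay in 6 of 40 members (15.0%) and in 25 of those genes (0.0916%). Its second form, ATTGG and CCACG with 1 base between, lay in 3 members (7.5%) and 18 genes (0.0659%). The UPR element TGACGTGG lay in 1 member (2.5%) and 213 genes (0.78%). The members were chosen for known membership of these pathways, so these shares are a description. A match is not evidence of binding, and the absence of exact letters in a window says nothing of a factor.

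The windows of HSPA5 and HERPUD1, an ERAD scaffold, are shown whole because these genes are used as reporters of ER stress and HERPUD1 holds motifs of both pathways. Capitals mark an ER stress response element in HSPA5, 66 to 48 bases before the start, and in HERPUD1 a C/EBP-ATF element on the opposite strand (177 to 169 bases before the start) followed by the second form of the ER stress element (117 to 107).
HSPA5, chr9:125241344-125241593, minus strand: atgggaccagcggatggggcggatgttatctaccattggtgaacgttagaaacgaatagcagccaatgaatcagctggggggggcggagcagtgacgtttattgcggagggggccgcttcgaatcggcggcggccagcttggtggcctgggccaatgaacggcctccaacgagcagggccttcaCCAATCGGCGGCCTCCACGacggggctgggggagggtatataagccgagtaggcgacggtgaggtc
HERPUD1, chr16:56931892-56932141, plus strand: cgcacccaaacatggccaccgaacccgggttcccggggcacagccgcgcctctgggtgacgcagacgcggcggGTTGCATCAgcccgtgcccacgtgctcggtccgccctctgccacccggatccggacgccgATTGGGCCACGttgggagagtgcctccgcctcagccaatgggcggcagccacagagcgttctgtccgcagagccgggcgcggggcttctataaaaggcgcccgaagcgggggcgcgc

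The other C/EBP-ATF elements are shown with their flanks to compare the letters around the shared core. Capitals mark the element, read as its reverse complement in CHAC1. ASNS and CEBPG carried it within 70 bases of the start (68 to 60 and 42 to 34), SLC1A5 at 97 to 89, and ATF3 and CHAC1 further out (191 to 183 and 210 to 202).
ASNS, chr7:97872458-97872486, minus strand: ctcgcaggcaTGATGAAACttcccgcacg
CEBPG, chr19:33374061-33374089, plus strand: gcgcggcgtcTGATGCAACctgccggcaa
SLC1A5, chr19:46784893-46784921, minus strand: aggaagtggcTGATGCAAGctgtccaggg
ATF3, chr1:212565206-212565234, plus strand: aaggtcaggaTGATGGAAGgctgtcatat
CHAC1, chr15:40953251-40953279, plus strand: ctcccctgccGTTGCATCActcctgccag

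The remaining ER stress elements are shown for the same comparison, again in capitals. HSP90B1 held 2, on opposite strands. HYOU1, an ER chaperone of the HSP110 family, held 2 of the second form, of which the distal one overlaps the UPR element, and SDF2L1, an ER chaperone cofactor, held 1. In CALR, CRELD2, HYOU1, SDF2L1 and the proximal site of HSP90B1 the element lay on the opposite strand, so its letters appear as the reverse complement.
XBP1, chr22:28800598-28800626, minus strand: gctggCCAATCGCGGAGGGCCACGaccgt
PDIA6, chr2:10812848-10812876, minus strand: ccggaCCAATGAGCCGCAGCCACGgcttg
HSP90B1, chr12:103930211-103930239, plus strand: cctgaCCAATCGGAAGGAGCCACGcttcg
HSP90B1, chr12:103930316-103930344, plus strand: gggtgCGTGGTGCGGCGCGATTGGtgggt
CALR, chr19:12938379-12938407, plus strand: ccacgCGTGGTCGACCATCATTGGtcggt
CRELD2, chr22:49918549-49918577, plus strand: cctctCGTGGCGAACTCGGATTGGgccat
HYOU1, chr11:119057372-119057401, minus strand: tggccccgTGACGTGGTCCAATcccaggcc
HYOU1, chr11:119057265-119057293, minus strand: ggcctgggaCGTGGTCCAATgagtacgcg
SDF2L1, chr22:21642105-21642133, plus strand: cctcggaagCGTGGACCAATcaaaaccct

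**Figure D1:**
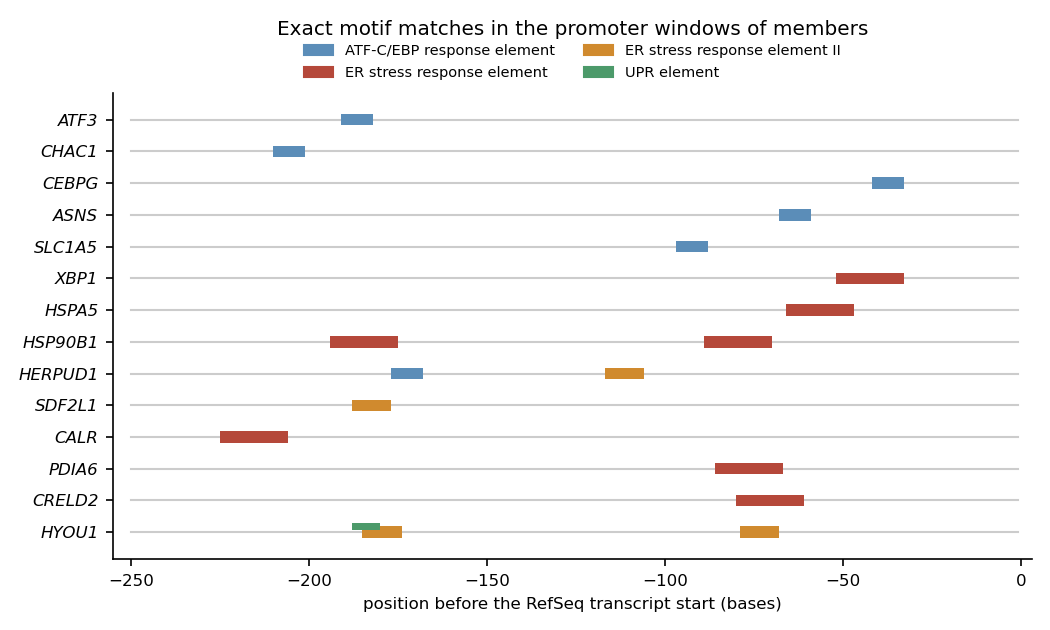
Positions of exact motif matches in the 14 members that held any of the 4 motifs; the x axis gives bases before the RefSeq transcript start, each grey line is 1 searched window of 250 bases, and each box is 1 match to scale. The C/EBP-ATF elements sit mainly in the amino acid and transcription factor genes, and the ER stress elements in XBP1 and the ER chaperones.

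At 50 µM CoCl2 most of the set was higher than in H2O, by small amounts. Of 43 members, 38 were called, 35 higher and 3 lower, where 61.4% of all genes tested were called (30.4% higher, 31.1% lower). The median log2 fold change was 0.23 over members and 0.0020 over all genes, and 2 members, NUPR1 and ATF5, changed at least 2-fold. By role, 10 of 13 transcription factors and feedback genes were called, all higher, 5 of 6 synthesis genes were higher and 1 lower, 5 of 6 transporters were higher and 1 lower, 3 of 4 sensor genes were called, all higher, and 12 of 14 ER chaperone and ERAD genes were higher and 1 lower. The 5 members not called at this dose were CEBPB, CHAC1, TRIB3, ERN1 and SDF2L1. DESeq2 called 31 members (30 higher, 1 lower) and 6190 of 13636 genes.

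At 10 µM fewer members passed the test. Of 43, 19 were called, 18 higher and 1 lower, where 22.7% of all genes were called (11.6% higher, 11.1% lower). The median log2 fold change was 0.082 over members and -0.0007 over all genes. Called higher were 4 transcription factors and feedback genes, 5 synthesis genes, 2 transporters, 2 sensor genes and 5 ER chaperone and ERAD genes. Called lower was DDIT4. A fit of all 14 libraries together called 10 of 43 members, all higher, and 796 of 14493 genes. Of all genes called at 10 µM, 51.2% were higher, and 40.3% when library totals were used without further scaling, while the members were then 17 higher and 1 lower.

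The doses were also compared directly, and 35 of 43 members differed, 31 higher and 4 lower at 50 µM, where 52.8% of all genes did. All 14 ER chaperone and ERAD genes were called in this comparison, 12 higher and 2 lower at 50 µM (HYOU1 and SDF2L1), as were 9 transcription factors and feedback genes, all higher. The call of SDF2L1 was lost without any 1 of the 4 cobalt libraries (adjusted p 0.0526 to 0.123) and in DESeq2 (0.196). Both doses were set against the same H2O libraries, so their fold changes are given side by side below and their overlap is not used as a result.

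**Figure D2:**
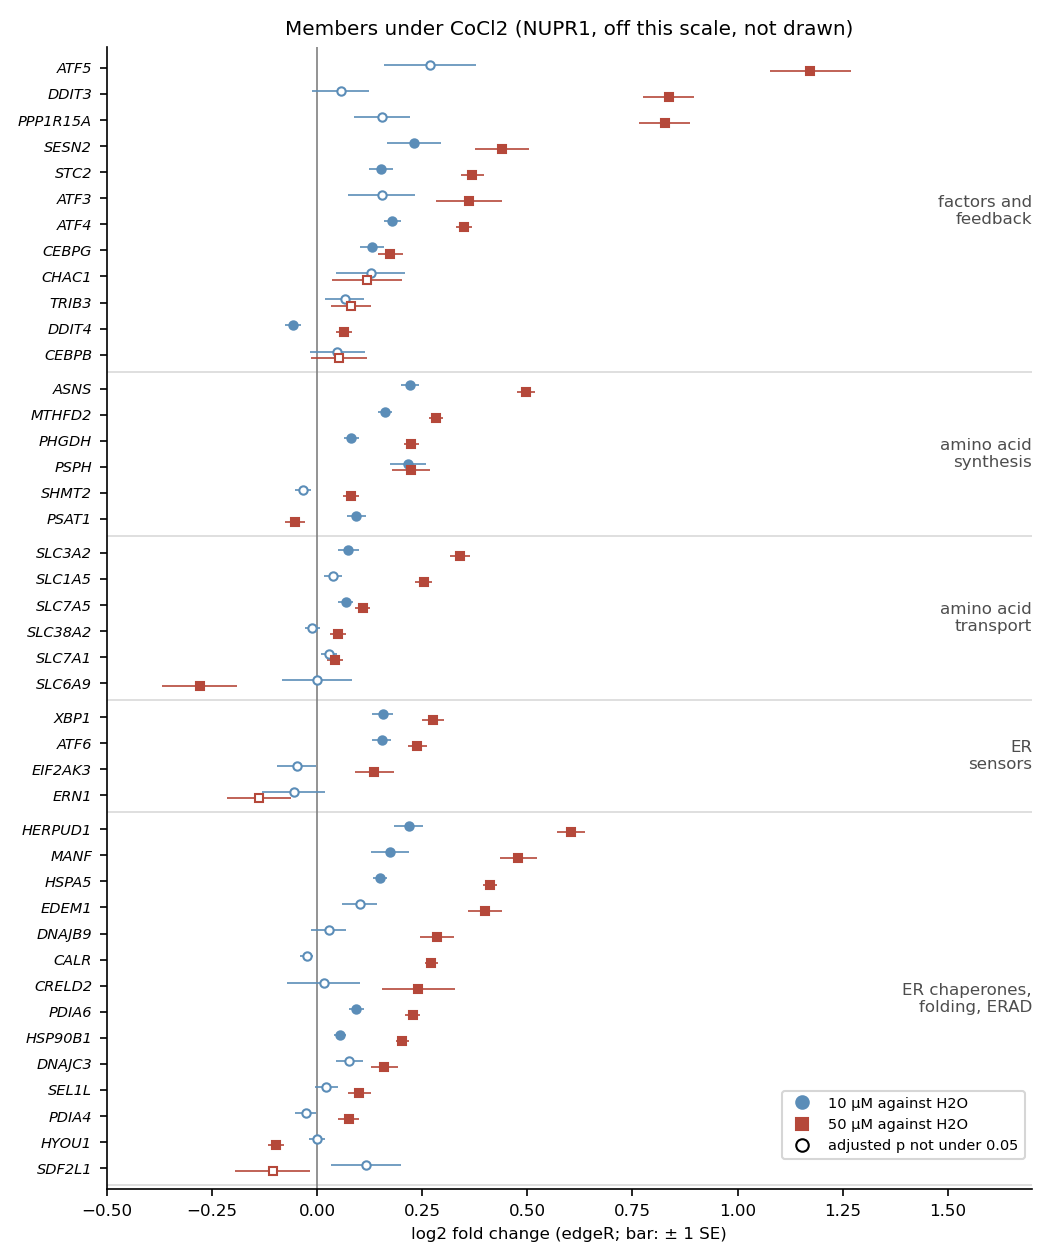
Log2 fold change against H2O of 42 members at 10 µM (circles) and 50 µM (squares) CoCl2, with bars of 1 SE, ordered within each role by the value at 50 µM; filled symbols passed the test. Squares lie right of zero for nearly all genes, with ATF5 (1.17), DDIT3 (0.84) and PPP1R15A (0.83) furthest, while SLC6A9, HYOU1 and PSAT1 are filled on the left; NUPR1 (3.29 at 50 µM) is off this scale.

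ATF4 encodes the central transcription factor of the integrated stress response (chromosome 22, 39519695 to 39522685, plus strand). Its mRNA stood at 281 and 278 CPM in H2O, 320 and 313 CPM at 10 µM and 350 and 363 CPM at 50 µM. The libraries of the 3 groups did not overlap, and the order followed the dose. Such a lack of overlap is common with 2 libraries per group. It held for 78.5% of all genes tested at 50 µM against H2O, 58.5% at 10 µM against H2O and 74.5% between the doses. ATF4 was 1.27-fold higher at 50 µM (log2 change 0.35, SE 0.019, adjusted p 5.12e-40) and 1.13-fold higher at 10 µM (log2 change 0.18, SE 0.019, adjusted p 8.40e-15), and it differed between the doses by 0.17 (SE 0.019, adjusted p 7.01e-15).

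DDIT3 (CHOP) is a pro-apoptotic transcription factor induced by ATF4 (chromosome 12, 57516588 to 57521737, minus strand). It was at 12.6 and 13.3 CPM in H2O, 13.4 and 13.5 CPM at 10 µM and 22.9 and 23.2 CPM at 50 µM. The 50 µM libraries stood clear of the other 4, which lay close together. It was 1.79-fold higher at 50 µM (log2 change 0.84, SE 0.061, adjusted p 1.61e-27), while at 10 µM the log2 fold change was 0.057 (SE 0.068, adjusted p 0.613). Of its exon bases, 39.6% are shared with other genes (MARS1, MBD6 and AC022506.1), and the counting did not use strand.

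The largest rises belonged to factors of low abundance. NUPR1 (chromosome 16, 28532708 to 28539174, minus strand) had 0.307 and 0.479 CPM in H2O, 0.797 and 0.643 CPM at 10 µM and 3.55 and 4.17 CPM at 50 µM. Only the 50 µM libraries exceeded 1 CPM. It was 9.79-fold higher at 50 µM (log2 change 3.29, SE 0.23, adjusted p 3.68e-30), and at 10 µM the log2 fold change was 0.86 (SE 0.34, adjusted p 0.0539). ATF5, a transcription factor of the ATF4 family linked to mitochondrial stress (chromosome 19, 49928702 to 49933935, plus strand), was at 4.6 and 4.87 CPM in H2O, 6.21 and 5.25 CPM at 10 µM and 10.9 and 10.5 CPM at 50 µM, again with the 50 µM libraries apart. It was 2.25-fold higher at 50 µM (log2 change 1.17, SE 0.096, adjusted p 9.25e-24), and 0.27 (SE 0.11, adjusted p 0.0609) on the log2 scale at 10 µM. Of its exon bases, 22.1% are shared with IL4I1 and NUP62 on the opposite strand.

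PPP1R15A, the phosphatase subunit that reverses eIF2 phosphorylation, rose by 0.83 (SE 0.061, adjusted p 2.40e-27) at 50 µM, where ATF3, a stress-induced repressor, rose by 0.36 (SE 0.079, adjusted p 2.89e-05), the secreted glycoprotein gene STC2 by 0.37 (SE 0.028, adjusted p 1.13e-26) and CEBPG, a dimer partner of ATF4, by 0.17 (SE 0.03, adjusted p 8.76e-08). SESN2, an inhibitor of mTORC1, was at 13.4 and 14.7 CPM in H2O, 15.2 and 17.7 CPM at 10 µM and 19.0 and 19.1 CPM at 50 µM. Its 2 libraries differed more at 10 µM than at 50 µM. SESN2 rose by 0.44 (SE 0.064, adjusted p 7.49e-10) at 50 µM and by 0.23 (SE 0.065, adjusted p 0.00427) at 10 µM, and the latter call was lost without the 10 µM replicate 2 (adjusted p 0.428), without H2O replicate 1 (0.133), in DESeq2 (0.165) and in the fit of all libraries (0.208).

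Of the 13 genes of this role, 3 were not called at 50 µM. The log2 fold change was 0.081 (SE 0.048, adjusted p 0.136) for TRIB3, a pseudokinase that restrains ATF4 signalling, 0.12 (SE 0.083, adjusted p 0.211) for CHAC1, which breaks down glutathione and is a commonly used ATF4 target, and 0.052 (SE 0.067, adjusted p 0.511) for the transcription factor gene CEBPB. DDIT4, picked out after its values were seen because its calls differ in sign, was at 300 and 308 CPM in H2O, 295 and 289 CPM at 10 µM and 315 and 322 CPM at 50 µM. Its 10 µM libraries were the lowest 2 and its 50 µM libraries the highest 2. It was called lower at 10 µM (log2 change -0.058, SE 0.019, adjusted p 0.0168) and higher at 50 µM (log2 change 0.065, SE 0.019, adjusted p 0.00194). The first call was lost without H2O replicate 2 (adjusted p 0.277), without the 10 µM replicate 2 (0.265), in DESeq2 (0.137) and in the fit of all libraries (0.337), and the second without H2O replicate 1 (0.108) and in the fit of all libraries (0.101).

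Among the synthesis genes, ASNS, which makes asparagine (chromosome 7, 97851677 to 97872542, minus strand), changed most. It stood at 168 and 170 CPM in H2O, 198 and 197 CPM at 10 µM and 235 and 243 CPM at 50 µM. No library of 1 group overlapped another group. ASNS was 1.41-fold higher at 50 µM (log2 change 0.50, SE 0.022, adjusted p 9.00e-51) and 1.17-fold higher at 10 µM (log2 change 0.22, SE 0.022, adjusted p 2.81e-16). MTHFD2, a mitochondrial folate enzyme, was at 406 and 407 CPM in H2O, 454 and 455 CPM at 10 µM and 498 and 492 CPM at 50 µM, likewise without overlap. It rose by 0.28 (SE 0.017, adjusted p 2.10e-35) at 50 µM and by 0.16 (SE 0.017, adjusted p 5.45e-15) at 10 µM. Of its exon bases, 33.6% are shared with AC006030.1 and SLC4A5.

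The serine pathway moved less evenly. PHGDH, its first enzyme, rose by 0.22 (SE 0.018, adjusted p 8.25e-25) at 50 µM and by 0.082 (SE 0.018, adjusted p 1.23e-04) at 10 µM, the latter with an adjusted p of 0.0675 in the fit of all libraries. PSPH, its last enzyme, was at 31.0 and 33.2 CPM in H2O, 37.3 and 37.3 CPM at 10 µM and 37.6 and 37.4 CPM at 50 µM, with all 4 cobalt libraries above both H2O libraries and the doses side by side. It rose by 0.22 (SE 0.044, adjusted p 4.22e-06) at 50 µM and by 0.22 (SE 0.043, adjusted p 3.08e-05) at 10 µM, and the direct difference between doses was 0.0065 (SE 0.043, adjusted p 0.913). SHMT2, the mitochondrial serine hydroxymethyltransferase, rose by 0.08 (SE 0.019, adjusted p 1.14e-04) at 50 µM.

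PSAT1, the middle enzyme of that pathway, was picked out after its values were seen because its calls also differ in sign. It was at 177 and 179 CPM in H2O, 188 and 191 CPM at 10 µM and 169 and 174 CPM at 50 µM, highest at 10 µM and lowest at 50 µM. It was called higher at 10 µM (log2 change 0.093, SE 0.022, adjusted p 5.63e-04) and lower at 50 µM (log2 change -0.052, SE 0.023, adjusted p 0.0404), and the doses differed by -0.15 (SE 0.023, adjusted p 1.40e-08). The fall at 50 µM was not called without the 50 µM replicate 1 (adjusted p 0.289), without H2O replicate 2 (0.173), without the 10 µM replicate 1 (0.0526), in DESeq2 (0.154) or in the fit of all libraries (0.169), where the rise at 10 µM was not called either (0.076).

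Of the transporters, SLC3A2, the heavy chain shared by several amino acid exchangers, changed most. It was at 136 and 132 CPM in H2O, 144 and 138 CPM at 10 µM and 167 and 172 CPM at 50 µM. The 50 µM libraries stood apart, and those at 10 µM lay just above H2O. SLC3A2 was 1.27-fold higher at 50 µM (log2 change 0.34, SE 0.025, adjusted p 3.22e-28). At 10 µM it rose by 0.074 (SE 0.025, adjusted p 0.0191), a call lost without the 10 µM replicate 1 (adjusted p 0.347), without H2O replicate 2 (0.221), in DESeq2 (0.198) and in the fit of all libraries (0.338).

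SLC7A5, the light chain that pairs with SLC3A2 to import large neutral amino acids, was at 371 and 368 CPM in H2O, 386 and 389 CPM at 10 µM and 397 and 399 CPM at 50 µM. The cobalt libraries were all above the H2O libraries. It rose by 0.11 (SE 0.018, adjusted p 3.46e-08) at 50 µM and by 0.069 (SE 0.018, adjusted p 0.00162) at 10 µM, the latter with an adjusted p of 0.0597 without the 10 µM replicate 2 and of 0.202 in the fit of all libraries. The glutamine carrier SLC1A5 rose by 0.25 (SE 0.021, adjusted p 5.34e-24) at 50 µM. SLC38A2, a sodium-coupled neutral amino acid carrier (0.05), and the arginine and lysine carrier SLC7A1 (0.042) were also called higher at 50 µM. The call of SLC38A2 was lost in 5 of 14 alternatives, among them DESeq2 (adjusted p 0.107), the fit of all libraries (0.217) and the fit without a low-count filter (0.127). Its log2 change was 0.011 without H2O replicate 1 and 0.035 without the 50 µM replicate 2. The call of SLC7A1 was lost in 10 of 14, among them DESeq2 (0.14), the fit of all libraries (0.313) and the fit without a low-count filter (0.194). The log2 change of SLC7A1 was 0.027 without H2O replicate 2, 0.026 without the 50 µM replicate 1, and 0.042 and 0.040 without the 10 µM replicates 1 and 2.

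The glycine transporter SLC6A9 went the other way, at 9.2 and 8.77 CPM in H2O, 9.31 and 8.7 CPM at 10 µM and 7.52 and 7.3 CPM at 50 µM. The 50 µM libraries were the lowest 2. SLC6A9 was 1.21-fold lower at 50 µM (log2 change -0.28, SE 0.089, adjusted p 0.00439), with an adjusted p of 0.0762 in DESeq2 and 0.053 in the fit of all libraries, and at 10 µM the log2 fold change was 0.0008 (SE 0.083, adjusted p 0.996).

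**Figure D3:**
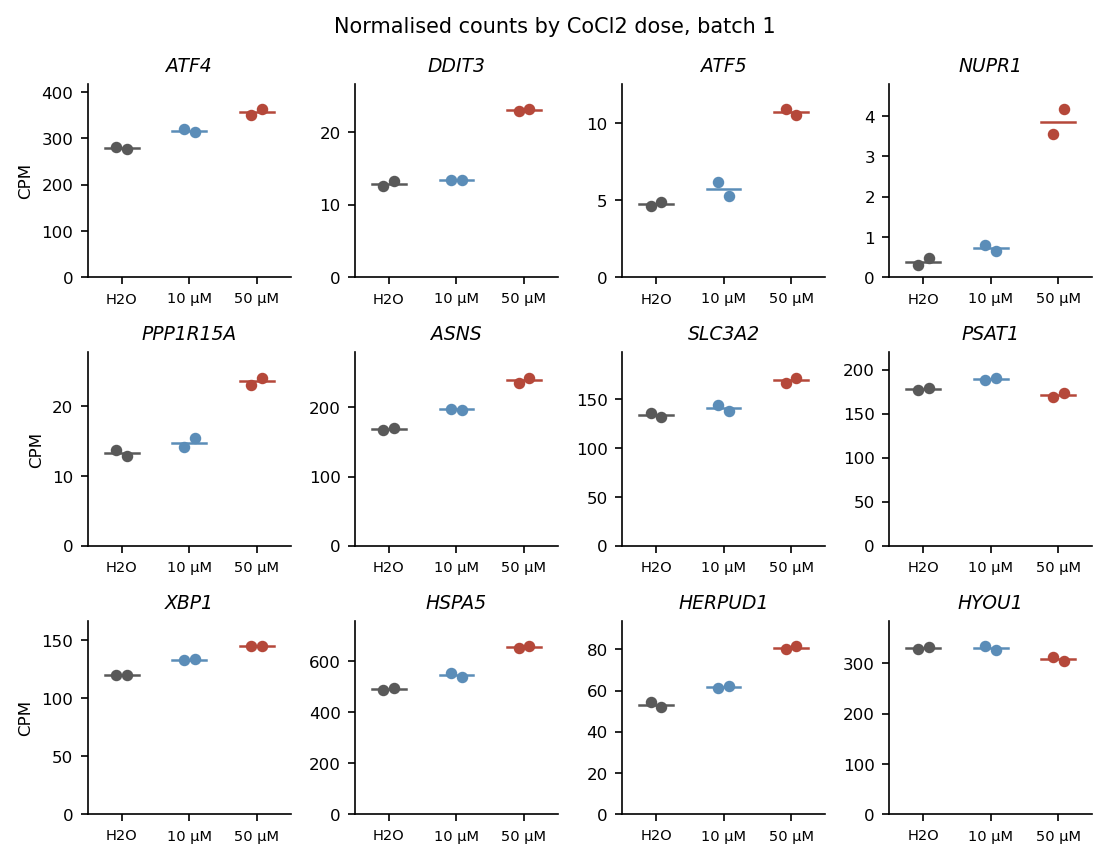
CPM of 12 members in each batch 1 library (points) by CoCl2 dose, with the group mean as a line and the y axis of each panel starting at 0. ATF4, ASNS, XBP1, HSPA5 and HERPUD1 step up from H2O to 10 µM to 50 µM, DDIT3 and PPP1R15A stand clear at 50 µM, and PSAT1 and HYOU1 are lowest at 50 µM.

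XBP1, whose spliced mRNA encodes the transcription factor of the IRE1 arm (chromosome 22, 28794555 to 28800597, minus strand), was at 120 and 120 CPM in H2O, 133 and 134 CPM at 10 µM and 145 and 145 CPM at 50 µM. The 3 groups did not overlap. Total XBP1 mRNA was 1.21-fold higher at 50 µM (log2 change 0.28, SE 0.025, adjusted p 3.87e-20) and 1.11-fold higher at 10 µM (log2 change 0.16, SE 0.025, adjusted p 1.91e-07). ATF6, which encodes a sensor that is cut in the Golgi to release a transcription factor, was at 161 and 158 CPM in H2O, 176 and 179 CPM at 10 µM and 189 and 187 CPM at 50 µM, again in the order of the dose. It rose by 0.24 (SE 0.023, adjusted p 1.16e-18) at 50 µM and by 0.15 (SE 0.023, adjusted p 1.34e-08) at 10 µM.

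EIF2AK3 encodes PERK. It rose by 0.14 (SE 0.046, adjusted p 0.00641) at 50 µM, a call lost without H2O replicate 2 (adjusted p 0.131), in DESeq2 (0.0931) and in the fit of all libraries (0.135). ERN1, which encodes IRE1, had a log2 change of -0.14 (SE 0.077, adjusted p 0.113) at 50 µM.

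HSPA5, the chaperone that holds the ER sensors inactive (chromosome 9, 125234853 to 125241343, minus strand), was at 488 and 497 CPM in H2O, 553 and 540 CPM at 10 µM and 651 and 659 CPM at 50 µM. Each dose lay above the one before without overlap. HSPA5 was 1.33-fold higher at 50 µM (log2 change 0.41, SE 0.016, adjusted p 2.59e-56) and 1.11-fold higher at 10 µM (log2 change 0.15, SE 0.017, adjusted p 4.87e-14). HERPUD1 (chromosome 16, 56932142 to 56944864, plus strand) had the largest change of the ER genes, at 54.4 and 51.9 CPM in H2O, 61.5 and 62.2 CPM at 10 µM and 80.0 and 81.5 CPM at 50 µM. It was 1.52-fold higher at 50 µM (log2 change 0.60, SE 0.034, adjusted p 2.80e-39) and 1.16-fold higher at 10 µM (log2 change 0.22, SE 0.035, adjusted p 1.17e-07).

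MANF, a secreted ER stress protein with neurotrophic activity, was at 30.1 and 33.7 CPM in H2O, 35.6 and 36.4 CPM at 10 µM and 44.1 and 44.9 CPM at 50 µM. Both 50 µM libraries exceeded all others. It rose by 0.48 (SE 0.043, adjusted p 1.53e-20) at 50 µM and by 0.17 (SE 0.044, adjusted p 0.00145) at 10 µM, where the call was lost without H2O replicate 1 (adjusted p 0.247), in DESeq2 (0.0948) and in the fit of all libraries (0.0942). EDEM1, which directs misfolded glycoproteins to degradation, rose by 0.40 (SE 0.04, adjusted p 1.52e-17) at 50 µM, and DNAJB9, a cochaperone of HSPA5, by 0.29 (SE 0.041, adjusted p 4.25e-10).

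The other ER genes rose by smaller amounts at 50 µM. CALR rose by 0.27, CRELD2 by 0.24, the disulfide isomerase PDIA6 by 0.23, HSP90B1 by 0.20, the HSPA5 cochaperone DNAJC3 by 0.16, the ERAD adaptor SEL1L by 0.10 and PDIA4 by 0.076. The call of CRELD2 was lost without the 50 µM replicate 2 (adjusted p 0.135), without H2O replicate 1 (0.0604) and in DESeq2 (0.125), and that of PDIA4 without H2O replicate 1 (0.0717) and in DESeq2 (0.0602). SEL1L had an adjusted p of 0.0534 in the fit of all libraries. At 10 µM, HSP90B1 rose by 0.055 (SE 0.015, adjusted p 0.00264), a call lost without H2O replicate 1 (0.0936), without the 10 µM replicate 2 (0.0822) and in the fit of all libraries (0.257), and PDIA6 by 0.094 (SE 0.018, adjusted p 1.99e-05). HYOU1 was the only ER member called lower at 50 µM (log2 change -0.098, SE 0.019, adjusted p 2.31e-06), at 329 and 333 CPM in H2O and 313 and 305 CPM at 50 µM.

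Members that held an exact motif did not all move alike. Of the 6 members with a C/EBP-ATF element, 5 were called higher at 50 µM and CHAC1 was not called. All 6 members with the ER stress response element (XBP1, HSPA5, HSP90B1, CALR, PDIA6 and CRELD2) were called higher, CRELD2 with the limits above. Of the 3 with the second form, HERPUD1 was higher, HYOU1 lower and SDF2L1 not called, with a log2 change of -0.10 (SE 0.089, adjusted p 0.307). Members with a motif were not tested against the other members, of which most were also called higher.

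Genes of the same pathways outside the set are given beside the shares of all genes called, which were 30.4% higher and 31.1% lower at 50 µM and 11.6% higher and 11.1% lower at 10 µM. Of 14 further genes of eIF2 signalling (kinases, eIF2B subunits, phosphatase and their regulators), 5 were higher and 5 lower at 50 µM (35.7% each), the largest changes being those of the kinase gene EIF2AK4, which encodes GCN2 (-0.31), its inhibitor IMPACT (-0.16) and EIF2B4 (-0.16). At 10 µM, 2 of these 14 were higher (14.3%) and 3 lower (21.4%). Of 20 cytosolic aminoacyl-tRNA synthetases, 8 were higher (40.0%) and 5 lower (25.0%) at 50 µM, with AARS1 (0.34) and SARS1 (0.33) among the higher. At 10 µM 11 were higher (55.0%), among them GARS1 (0.15) and AARS1 (0.13), and 1 was lower (5.0%).

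Of 23 further ATF4 targets tested, 11 were higher (47.8%) and 6 lower (26.1%) at 50 µM, where 61.4% of all genes were called in either direction. The largest were the stress cytokine GDF15 (2.27), ADM2 (0.83) and the death receptor gene TNFRSF10B (0.76). At 10 µM, 5 were higher (21.7%) and 1 lower (4.3%), led by ALDH1L2 (-0.24), VLDLR (0.23) and MAP1LC3B (0.19). Of 30 further ER genes tested, 11 were higher and 11 lower at 50 µM (36.7% each), led by WFS1 (-0.48), ERO1B (-0.46) and EDEM2 (-0.40). The median log2 fold change of these 30 was 0.021 and that of the 14 ER members 0.23.

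Markers of cell identity were compared between the cobalt groups, and their sums did not follow the dose. The summed level of the 13 adrenergic markers was 14600 CPM in both H2O libraries and 15300 to 15400 CPM at 10 µM. At 50 µM it was 13000 to 13100 CPM. Of 12 tested, 8 were called higher and 0 lower at 10 µM, where 11.6% of all genes were higher and 11.1% lower. At 50 µM, 5 were higher and 5 lower, where 30.4% of all genes were higher and 31.1% lower. The 10 mesenchymal markers summed to 366 to 381 CPM in H2O, 343 to 352 CPM at 10 µM and 357 to 363 CPM at 50 µM, and the 7 endothelial markers to 3.04 to 3.45, 2.47 to 2.91 and 3.05 to 3.36 CPM. Of 8 mesenchymal markers tested, 1 was called higher and 2 lower at 10 µM, and 3 higher and 3 lower at 50 µM. Of 4 endothelial markers tested, 0 were called at 10 µM, and 1 was higher and 2 lower at 50 µM. In bulk RNA, fewer cells of a type and less RNA per cell cannot be told apart. The part of these markers in the cobalt results was not tested.

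In batch 2, TET2 itself was not called lower in any labelled knockout. It was at 70.8 and 64.8 CPM in WT, 80.4 and 76.6 CPM in knockout 1, 87.4 and 91.1 CPM in knockout 2 and 68.2 and 75.4 CPM in knockout 3, with log2 fold changes against WT of 0.21 (adjusted p 6.64e-04), 0.40 (adjusted p 3.86e-12) and 0.080 (adjusted p 0.301). Counts per gene do not show an edit, so the label could not be checked, and every direction below is that of the libraries labelled knockout against the same 2 WT libraries.

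The stress genes that were called differed in number and direction between the labelled knockouts. In knockout 1, 7 of 42 members were called (16.7%), 5 higher and 2 lower. That count was near the share of all genes, 17.5% (7.8% higher, 9.7% lower). In knockout 2, 19 were called (45.2%), 4 higher and 15 lower, where 26.3% of all genes were called (12.0% higher, 14.3% lower). In knockout 3, 13 were called (31.0%), 2 higher and 11 lower, where 18.9% of all genes were called (8.9% higher, 10.0% lower). The median log2 fold changes of the members were 0.034, -0.065 and -0.077, and those of all genes -0.0013, 0.0007 and -0.0005. No member changed 2-fold in any knockout number. Leaving out TET2KO 1 replicate 2 or WT replicate 2 took the count in knockout 1 to 3 or 4.

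The average of the 3 knockout numbers against WT called 11 of 42 members, 1 higher (ATF5) and 10 lower, against 18.9% of all genes, and 5 members without WT replicate 2. With 1 coefficient for the 6 knockout libraries, which puts differences between numbers into the spread, 1 member was called, HSP90B1 (log2 change -0.17, adjusted p 0.0384). That fit called 256 genes in all. A direct test of the difference among the 3 numbers called 33 of 42 members, where 37.6% of all genes were called. Knockout 2 differed from knockouts 1 and 3 in 23 members, 7 higher and 16 lower, where 35.2% of all genes did, and knockout 3 from knockout 1 in 16 members, 2 higher and 14 lower, where 8.30% did. The last count fell to 8 and 4 members without TET2KO 1 replicates 1 and 2, and to 8 and 6 without TET2KO 3 replicates 1 and 2, all of them lower, while 564 to 797 genes in all were called in these fits in place of 1167. With library totals and no further scaling, the split for knockout 2 against 1 and 3 was 12 higher and 12 lower among members and 65.9% higher among all genes called, against 50.5% with scaling. For knockout 2 against WT it was 5 higher and 12 lower among members (60.3% against 45.7% higher among all genes), and for knockout 3 against 1 it was 1 higher and 18 lower (39.3% against 53.1%).

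**Figure D4:**
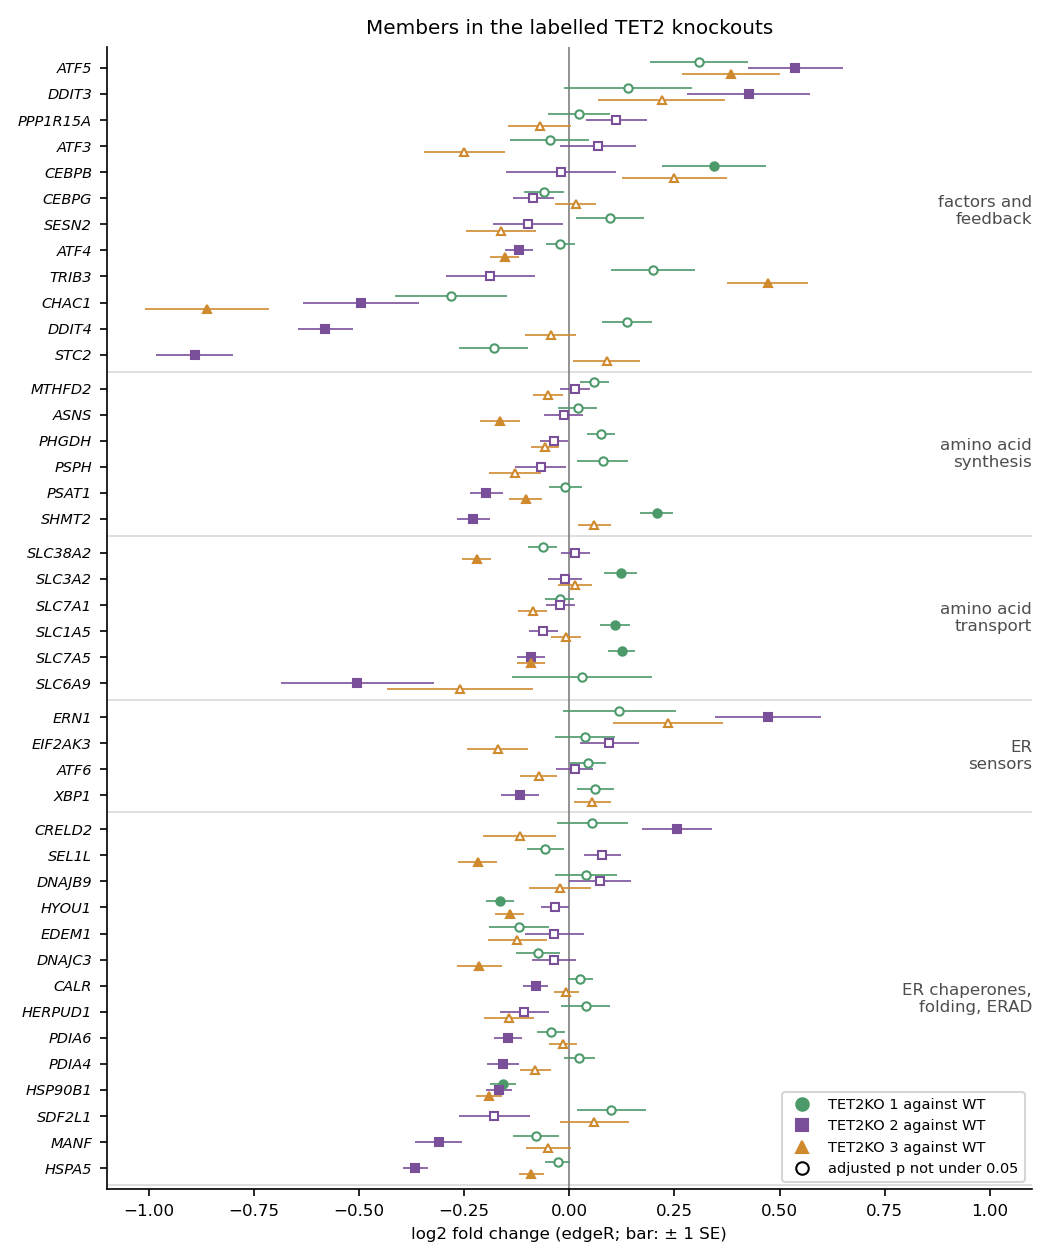
Log2 fold change against WT of the 42 members tested in batch 2, for labelled knockouts 1 (circles), 2 (squares) and 3 (triangles), with bars of 1 SE; filled symbols passed the test. HSP90B1 has 3 filled symbols left of zero (-0.16 to -0.19), STC2, DDIT4 and HSPA5 have a filled square far from the other symbols, and SHMT2 has filled symbols on both sides.

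Among the transcription factors and feedback genes, ATF4 was at 351 and 357 CPM in WT, 346 and 352 CPM in knockout 1, 326 and 326 CPM in knockout 2 and 327 and 309 CPM in knockout 3. Knockout 1 overlapped WT, and knockouts 2 and 3 lay below it. Of all genes tested, 54.2, 60.7 and 54.8% showed no overlap with WT in knockouts 1, 2 and 3. All 6 knockout libraries together did not overlap WT in 17.0%. ATF4 was lower by a little in knockout 2 (log2 change -0.12, SE 0.034, adjusted p 0.00323) and knockout 3 (log2 change -0.15, SE 0.034, adjusted p 1.29e-04), and was -0.021 (SE 0.033, adjusted p 0.74) in knockout 1. DDIT3 was at 4.57 and 5.39 CPM in WT, 5.8 and 5.19 CPM in knockout 1, 6.98 and 6.4 CPM in knockout 2 and 6.3 and 5.23 CPM in knockout 3, with every number but knockout 2 overlapping WT. It was higher in knockout 2 (log2 change 0.43, SE 0.15, adjusted p 0.0184), a call lost without WT replicate 1 (adjusted p 0.221) or TET2KO 2 replicate 1 (0.165), while in knockouts 1 and 3 the adjusted p was 0.604 and 0.343.

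STC2 (chromosome 5, 173314713 to 173329503, minus strand) had the largest change of any member in batch 2. It was at 22.9 and 20.6 CPM in WT, 19.2 and 19.2 CPM in knockout 1, 11.1 and 12.4 CPM in knockout 2 and 22.9 and 23.4 CPM in knockout 3. The knockout 2 libraries were far below the other 6. STC2 was 1.85-fold lower in knockout 2 than in WT (log2 change -0.89, SE 0.091, adjusted p 3.67e-17), and the log2 difference from knockouts 1 and 3 was -0.84 (SE 0.081, adjusted p 3.39e-19). DDIT4 was at 42.1 and 43.8 CPM in WT, 47.5 and 47.0 CPM in knockout 1, 27.3 and 30.2 CPM in knockout 2 and 41.2 and 42.1 CPM in knockout 3, with knockout 2 again alone at the bottom. It was 1.49-fold lower there (log2 change -0.58, SE 0.065, adjusted p 1.10e-14), with a log2 difference of -0.63 (SE 0.057, adjusted p 7.54e-21) from knockouts 1 and 3.

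CHAC1 (chromosome 15, 40952962 to 40956512, plus strand) stood at 7.19 and 8.1 CPM in WT, 6.2 and 6.37 CPM in knockout 1, 5.17 and 5.68 CPM in knockout 2 and 3.79 and 4.68 CPM in knockout 3. All 6 knockout libraries were below both WT libraries, and knockout 3 was lowest. It was 1.82-fold lower in knockout 3 (log2 change -0.86, SE 0.15, adjusted p 5.07e-07) and 1.41-fold lower in knockout 2 (log2 change -0.50, SE 0.14, adjusted p 0.00284), where the call was lost without WT replicate 2 (adjusted p 0.0724) or TET2KO 2 replicate 1 (0.0668). The log2 fold change in knockout 1 was -0.28 (SE 0.13, adjusted p 0.14). TRIB3 was at 12.0 and 12.0 CPM in WT, 13.1 and 14.5 CPM in knockout 1, 9.87 and 11.3 CPM in knockout 2 and 17.4 and 15.9 CPM in knockout 3, highest in knockout 3. It was 1.39-fold higher in knockout 3 (log2 change 0.47, SE 0.096, adjusted p 3.84e-05), 0.20 (SE 0.10, adjusted p 0.173) in knockout 1 and -0.19 (SE 0.11, adjusted p 0.197) in knockout 2.

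CEBPB was at 7.4 and 7.17 CPM in WT, 8.94 and 9.53 CPM in knockout 1, 6.89 and 7.49 CPM in knockout 2 and 8.17 and 9.22 CPM in knockout 3. Knockouts 1 and 3 lay above WT and knockout 2 overlapped it. It was called higher in knockout 1 (log2 change 0.34, SE 0.12, adjusted p 0.0366), a call lost in DESeq2 (adjusted p 0.0654) and without TET2KO 1 replicate 2 (0.245), TET2KO 1 replicate 1 (0.0604), WT replicate 1 (0.101) or WT replicate 2 (0.165). ATF5 was higher in knockout 2 (log2 change 0.54, SE 0.11, adjusted p 4.35e-05) and knockout 3 (log2 change 0.38, SE 0.12, adjusted p 0.00883), the latter with an adjusted p of 0.0973 without WT replicate 1 and 0.0938 without TET2KO 3 replicate 2, and was 0.31 (SE 0.12, adjusted p 0.0512) in knockout 1. NUPR1 was at 0.182 and 0.107 CPM in WT and was not tested.

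Among the synthesis genes SHMT2 moved in opposite directions. It was at 163 and 167 CPM in WT, 187 and 193 CPM in knockout 1, 137 and 144 CPM in knockout 2 and 176 and 167 CPM in knockout 3. Both knockout 1 libraries were above WT and both knockout 2 libraries below it. SHMT2 was higher in knockout 1 (log2 change 0.21, SE 0.039, adjusted p 5.59e-06) and lower in knockout 2 (log2 change -0.23, SE 0.04, adjusted p 6.25e-07), and knockout 2 differed from 1 and 3 by -0.36 (SE 0.035, adjusted p 2.70e-19). PSAT1 was at 165 and 169 CPM in WT, 167 and 165 CPM in knockout 1, 145 and 146 CPM in knockout 2 and 154 and 158 CPM in knockout 3, lowest in knockout 2. It was lower in knockout 2 (log2 change -0.20, SE 0.039, adjusted p 1.59e-05). In knockout 3 it was lower by less (log2 change -0.10, SE 0.039, adjusted p 0.0465), a call lost without WT replicate 1 (adjusted p 0.0915), WT replicate 2 (0.217), TET2KO 3 replicate 1 (0.314) or TET2KO 3 replicate 2 (0.0641), without TET2KO 1 replicate 1 (0.0584) or either TET2KO 2 replicate (0.0638 and 0.0636), and narrowly under 4 other settings (0.0502 to 0.0631).

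ASNS was at 91.7 and 98.3 CPM in WT, 95.5 and 97.2 CPM in knockout 1, 98.0 and 90.3 CPM in knockout 2 and 85.4 and 84.1 CPM in knockout 3. Knockout 3 lay below every other library. It was lower there (log2 change -0.17, SE 0.047, adjusted p 0.00492), with an adjusted p of 0.173 without WT replicate 2, and was 0.02 in knockout 1 and -0.013 in knockout 2. PHGDH, PSPH and MTHFD2 were called in no knockout number against WT.

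**Figure D5:**
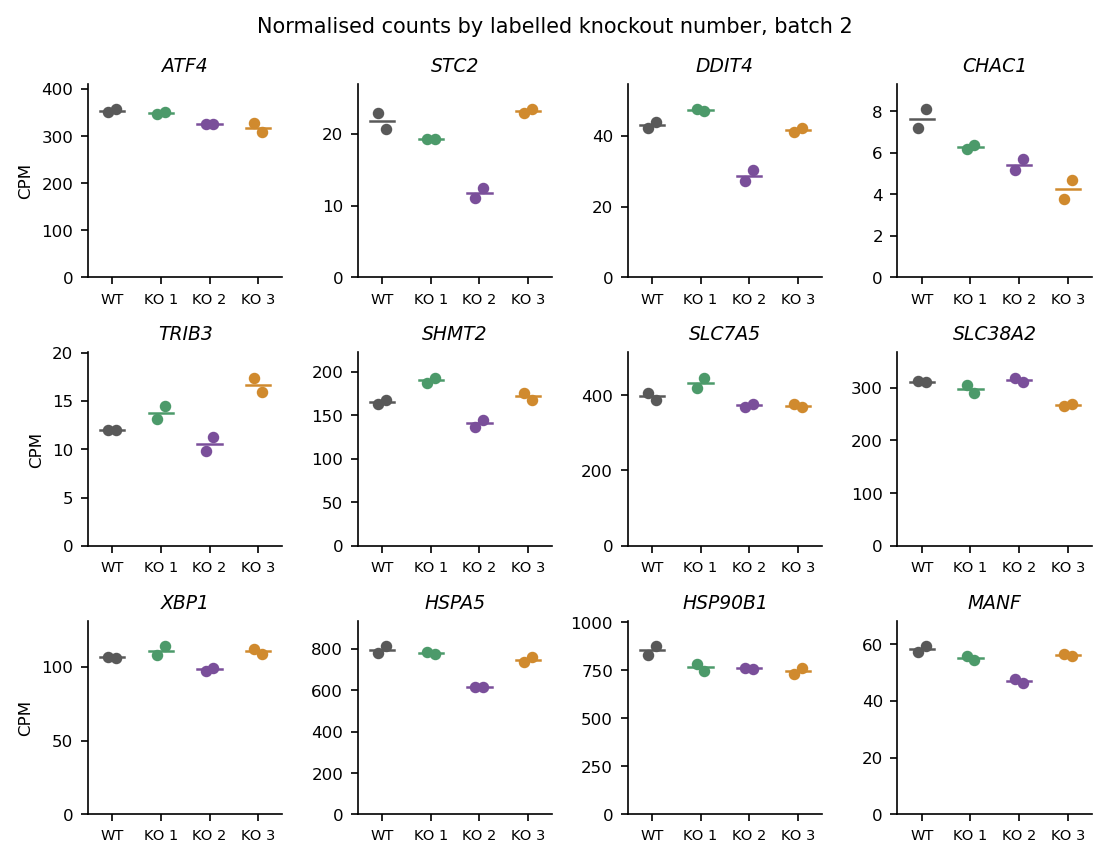
CPM of 12 members in each batch 2 library (points) by group, where KO 1 to KO 3 are the labelled TET2 knockouts, with the group mean as a line and the y axis of each panel starting at 0. Knockout 2 stands apart in STC2, DDIT4, SHMT2, HSPA5 and MANF, knockout 3 in CHAC1, TRIB3 and SLC38A2, and all 6 knockout libraries lie below WT in HSP90B1.

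Among the transporters, SLC7A5 was at 406 and 387 CPM in WT, 418 and 446 CPM in knockout 1, 369 and 376 CPM in knockout 2 and 376 and 368 CPM in knockout 3. Knockout 1 was above WT, and knockouts 2 and 3 below it. It was higher in knockout 1 (log2 change 0.12, SE 0.033, adjusted p 0.0024) and lower in knockouts 2 and 3 (-0.091 and -0.091, adjusted p 0.0289 and 0.0379). Each of these calls was lost in some fits. The knockout 2 call was lost with library totals alone (adjusted p 0.192). The knockout 3 call was lost in DESeq2 (0.0786) and with the replicate number as a block (0.0626). Without WT replicate 1 the adjusted p was 0.29 in knockout 2 and 0.429 in knockout 3. Without WT replicate 2 it was 0.125 in knockout 1, without TET2KO 1 replicate 2 it was 0.255 in knockout 1. Without TET2KO 2 replicate 1 or 2 it was 0.229 or 0.0713 in knockout 2, and without TET2KO 3 replicate 2 or 1 it was 0.217 or 0.0637 in knockout 3, where it was also 0.0516, 0.0556 and 0.0529 without TET2KO 1 replicate 1 and TET2KO 2 replicates 1 and 2. Knockout 3 differed from knockout 1 by -0.22 (SE 0.033, adjusted p 9.12e-08).

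SLC3A2 was at 145 and 158 CPM in WT, 163 and 167 CPM in knockout 1, 151 and 150 CPM in knockout 2 and 150 and 157 CPM in knockout 3. Only knockout 1 lay above both WT libraries. It was called higher there (log2 change 0.12, SE 0.04, adjusted p 0.0194), a call lost without WT replicate 1 (adjusted p 0.461) or TET2KO 1 replicate 2 (0.192). SLC1A5 was also called higher in knockout 1 (log2 change 0.11, SE 0.035, adjusted p 0.018), which was lost without TET2KO 1 replicate 2 (0.265) or WT replicate 2 (0.171).

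SLC38A2 was at 313 and 310 CPM in WT, 306 and 290 CPM in knockout 1, 319 and 310 CPM in knockout 2 and 265 and 270 CPM in knockout 3, with knockout 3 below all others. It was 1.16-fold lower in knockout 3 (log2 change -0.22, SE 0.035, adjusted p 3.95e-08). SLC6A9 was at 4.46 and 4.16 CPM in WT, 4.6 and 4.2 CPM in knockout 1, 2.96 and 3.11 CPM in knockout 2 and 3.91 and 3.24 CPM in knockout 3, with the 2 lowest libraries in knockout 2. It was called lower in knockout 2 (log2 change -0.50, SE 0.18, adjusted p 0.0265), a call lost without any 1 of the WT or TET2KO 2 libraries (adjusted p 0.133 and 0.0533 without WT replicates 1 and 2, 0.148 and 0.0827 without TET2KO 2 replicates 1 and 2).

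Of the sensor genes, XBP1 was at 107 and 106 CPM in WT, 108 and 114 CPM in knockout 1, 97.2 and 99.3 CPM in knockout 2 and 112 and 109 CPM in knockout 3. Knockout 2 was below WT and the others above it. It was called lower in knockout 2 (log2 change -0.12, SE 0.045, adjusted p 0.0386), which was lost without any 1 of WT replicate 1 (adjusted p 0.139), WT replicate 2 (0.0654), TET2KO 2 replicate 1 (0.235) or TET2KO 2 replicate 2 (0.0926), and with library totals alone (0.16). Against knockouts 1 and 3, the log2 difference of knockout 2 was -0.17 (SE 0.039, adjusted p 7.41e-05). ERN1 was at 7.2 and 6.03 CPM in WT, 6.88 and 7.45 CPM in knockout 1, 8.66 and 9.7 CPM in knockout 2 and 7.81 and 7.74 CPM in knockout 3, highest in knockout 2. It was called higher there (log2 change 0.47, SE 0.13, adjusted p 0.00174), with an adjusted p of 0.105 without WT replicate 2 and 0.0657 without TET2KO 2 replicate 2. EIF2AK3 and ATF6 were called in no knockout number.

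Among the ER chaperones, HSPA5 was at 781 and 813 CPM in WT, 786 and 777 CPM in knockout 1, 618 and 618 CPM in knockout 2 and 736 and 761 CPM in knockout 3. The 2 knockout 2 libraries lay far below the other 6. HSPA5 was 1.29-fold lower in knockout 2 (log2 change -0.37, SE 0.03, adjusted p 2.87e-24) and differed from knockouts 1 and 3 by -0.31 (SE 0.026, adjusted p 7.27e-23). It was -0.028 (SE 0.03, adjusted p 0.6) in knockout 1 and -0.09 (SE 0.03, adjusted p 0.02) in knockout 3, the latter lost without TET2KO 3 replicate 1 (adjusted p 0.278) or WT replicate 2 (0.26). MANF was at 57.4 and 59.3 CPM in WT, 55.9 and 54.5 CPM in knockout 1, 47.7 and 46.3 CPM in knockout 2 and 56.7 and 56.0 CPM in knockout 3, with knockout 2 again lowest. It was 1.24-fold lower in knockout 2 (log2 change -0.31, SE 0.056, adjusted p 1.29e-06), and -0.079 in knockout 1 and -0.05 in knockout 3, where it was not called.

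HSP90B1 (chromosome 12, 103930107 to 103953645, plus strand) was called lower in each knockout number. It was at 832 and 876 CPM in WT, 783 and 749 CPM in knockout 1, 763 and 758 CPM in knockout 2 and 733 and 764 CPM in knockout 3, with all 6 knockout libraries below both WT libraries. The log2 fold change was -0.16 (SE 0.03, adjusted p 9.73e-06) in knockout 1, -0.17 (SE 0.03, adjusted p 1.39e-06) in knockout 2 and -0.19 (SE 0.03, adjusted p 4.63e-08) in knockout 3, and no difference among the numbers passed the direct test (adjusted p 0.642). All 3 values rest on the same WT libraries. Of its exon bases, 11.6% are shared with C12orf73.

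HYOU1 was at 351 and 362 CPM in WT, 317 and 320 CPM in knockout 1, 349 and 347 CPM in knockout 2 and 329 and 318 CPM in knockout 3. All 6 knockout libraries were below WT, those of knockout 2 only just. It was lower in knockout 1 (log2 change -0.17, SE 0.034, adjusted p 3.49e-05) and knockout 3 (log2 change -0.14, SE 0.033, adjusted p 4.42e-04), and -0.035 (SE 0.033, adjusted p 0.482) in knockout 2. SEL1L was at 112 and 105 CPM in WT, 108 and 101 CPM in knockout 1, 114 and 115 CPM in knockout 2 and 92.3 and 94.4 CPM in knockout 3, lowest in knockout 3. It was lower there (log2 change -0.22, SE 0.045, adjusted p 4.98e-05) and 0.079 (SE 0.044, adjusted p 0.188) in knockout 2. DNAJC3 was at 67.4 and 64.1 CPM in WT, 65.2 and 59.8 CPM in knockout 1, 62.4 and 65.7 CPM in knockout 2 and 56.8 and 56.5 CPM in knockout 3, and was lower in knockout 3 (log2 change -0.21, SE 0.053, adjusted p 0.00102), with an adjusted p of 0.057 without WT replicate 1.

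The remaining calls were small and in knockout 2. The log2 fold change was -0.16 (SE 0.037, adjusted p 3.49e-04) for PDIA4, -0.14 (SE 0.034, adjusted p 2.37e-04) for PDIA6, -0.08 (SE 0.03, adjusted p 0.0356) for CALR and 0.26 (SE 0.082, adjusted p 0.0117) for CRELD2. The call of CALR was lost without TET2KO 2 replicate 1 (adjusted p 0.458) or WT replicate 2 (0.13) and with library totals alone (0.255), and that of CRELD2 without WT replicate 1 (0.133) or TET2KO 2 replicate 2 (0.09). HERPUD1, EDEM1, DNAJB9 and SDF2L1 were called in no knockout number.

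Of the related genes outside the set, the aminoacyl-tRNA synthetases were called as follows. Of 20, 6 were called in knockout 2, all lower, where 26.3% of all genes were called and 14.3% were lower, led by QARS1 (-0.22), VARS1 (-0.21) and CARS1 (-0.20), and 7 were lower (35.0%, against 10.0% of all genes) and 1 higher in knockout 3, led by CARS1 (-0.24), TARS1 (-0.16) and AARS1 (-0.14). In knockout 1, 1 was higher and 1 lower. Of 23 further ATF4 targets, 1 was lower and 2 higher in knockout 1 (13.0% called, against 17.5% of all genes), 9 were lower and 4 higher in knockout 2 (56.5%, against 26.3%), led by JDP2 (-0.74), CTH (-0.64) and SLC7A11 (0.53), and 4 were lower and 4 higher in knockout 3 (34.8%, against 18.9%), led by GDF15 (1.40), JDP2 (-0.86) and SLC7A11 (-0.32). Of 30 further ER genes, 4 were called in knockout 1, all higher, 4 higher and 2 lower in knockout 2, led by EDEM3 (0.34), ERO1B (-0.34) and DERL2 (0.31), and 1 higher and 2 lower in knockout 3. At most 2 of 14 genes of eIF2 signalling were called in any knockout number.

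Markers of other cell types moved with the labelled knockouts. The 10 mesenchymal markers summed to 915 to 935 CPM in WT and 433 to 550 CPM in the knockout libraries, and the 7 endothelial markers to 12.4 to 12.9 CPM in WT and 2.01 to 5.39 CPM in the knockouts. The 13 adrenergic markers summed to 10500 to 10700 CPM in WT, 8360 to 8470 CPM in knockout 2 and 10400 to 10700 CPM in knockouts 1 and 3. Single markers changed in each number. Of 12 tested, 6 were called higher and 2 lower in knockout 1, where 17.5% of all genes were called. In knockout 2, 3 were higher and 5 lower (26.3% of all genes called), and in knockout 3, 5 higher and 4 lower (18.9%). At 0 in every library of WT and of each knockout number were 1 of the 10 mesenchymal, 0 of the 7 endothelial and 3 of the 5 leukocyte markers in each group. Their part in the changes of the stress genes was not tested.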

How the data were processed

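RNA from 14 SK-N-BE2 libraries, extracted with TRIzol and sequenced from an oligo-dT, strand-specific preparation per the labels' protocols, had been processed by the authors with Trimmomatic 0.36, STAR 2.6.1d and Subread 1.5.3, per the submitters' processing notes. The deposited values are raw counts per gene over exons of GENCODE protein-coding genes on GRCh38, made with featureCounts, in a different version for each batch and with no strand option, per the file headers. Most low counts in batch 2 were even, as when both reads of a pair are counted.

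Members are all rows of the count tables with 1 of the 43 symbols. Members, roles and further lists were chosen with earlier results of these data known. Each batch was fitted with edgeR 4.0.16 in R 4.3.3 (genes kept by expression per group, TMM scaling, robust quasi-likelihood fit, dispersion floor 1e-04), with 13636 genes tested in batch 1 and 14061 in batch 2 and Benjamini-Hochberg adjustment. The procedure was also run on simulated data, with a wider spread and larger planted changes than most of those given here. That run does not bear on the small changes. DESeq2 1.42.0, other scalings and filters, a fit of all libraries and leaving out each library were alternatives. Replicates of each group differed beyond counting noise, but by little in batch 1, and were kept as 2 samples. The chi-square per gene, which is near 1 for counting noise alone, was 1.226 to 1.465 in batch 1. In batch 2 it was 3.862 to 5.524, and 1.955 to 2.829 with counts divided by 2. The estimated dispersion was 7.66e-05 in batch 1, under the floor, and 0.000463 in batch 2.

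Values of every library are given for ATF4, DDIT3, XBP1 and HSPA5, and for up to 2 called members with the largest change per role and comparison. From further lists, up to 3 called genes with the largest change are named, except for an item that is not reported here. Promoters are RefSeq's (GRCh38.p14), and NUPR1, PSPH and SHMT2 had no entry. The labels were matched by title, and no sample was left out.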

Additional observations from a re-analysis of the deposited data

Results flagged for a closer look

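Of 42 members tested in batch 2, 33 differed among the labelled knockouts by edgeR's F-test across the 3 numbers, as did 37.6% of all genes. Each value is the gap between the highest and lowest of the 3 log2 changes from WT. The widest was STC2 at 0.98 (adjusted p 5.24e-20). Next came DDIT4 0.72, TRIB3 0.66, CHAC1 0.58, SLC6A9 0.53 and SHMT2 0.44. In the middle of the range were CRELD2 0.37, CEBPB 0.36, ERN1 0.35, HSPA5 0.34, ATF3 0.32, SEL1L 0.30, SDF2L1 0.28, EIF2AK3 0.27, MANF 0.26, SESN2 0.26, SLC38A2 0.23, SLC7A5 0.22, PSPH 0.21 and PSAT1 0.19. The narrowest were ASNS 0.19, HERPUD1 0.18, PDIA4 0.18, XBP1 0.18, DNAJC3 0.18, SLC1A5 0.17, PHGDH 0.13, ATF4 0.13, SLC3A2 0.13, HYOU1 0.13, PDIA6 0.13, MTHFD2 0.11 and CALR 0.11. All 3 knockout numbers were compared with the same 2 WT libraries, and how the labelled knockouts differ beyond their number is not given in the labels.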

How the results depend on the processing

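None of the results changed direction among called values under any alternative run. Among members, the fit of all 14 libraries called 10 at 10 µM, and a single coefficient for all knockout libraries called 1 for the knockout average. Leaving out 1 library gave 3 to 8 members in knockout 1, 5 to 12 for the knockout average and 4 to 15 for knockout 3 against knockout 1. The ranges were 16 to 20 at 10 µM, 34 to 37 at 50 µM, 13 to 19 in knockout 2 and 9 to 13 in knockout 3.

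Among all genes, DESeq2 called 1121 and the fit of all libraries 796 at 10 µM, and that fit called 4674 between the doses and 2027 between knockouts 3 and 1. The shared coefficient called 256. Leaving out 1 library gave 1860 to 3291 at 10 µM, 1375 to 2586 in knockout 1, 2406 to 3766 in knockout 2, 1568 to 2615 in knockout 3, 1587 to 2703 for the average, 3210 to 5002 for knockout 2 against 1 and 3, and 564 to 1184 for knockout 3 against 1. The causes were not tested.

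Replicate numbers did not pair the libraries: the correlation of replicate differences between groups lay between -0.0457 and 0.0229. With the replicate number as a block, 19, 36 and 35 members were called at 10 µM, at 50 µM and between the doses, and 7, 18 and 11 in knockouts 1, 2 and 3. Calls kept in every alternative numbered 10 of 19 at 10 µM, 29 of 38 at 50 µM, 3 of 7, 11 of 19 and 7 of 13 in knockouts 1, 2 and 3.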

Other observations

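The H2O cells of batch 1 and the WT cells of batch 2 differed in several members, and in both directions. Some were lower in WT. DDIT4 was at 300 and 308 CPM in H2O and 42.1 and 43.8 CPM in WT. STC2 was at 92.7 and 94.4 CPM in H2O and 22.9 and 20.6 CPM in WT, and DDIT3 at 12.6 and 13.3 and 4.57 and 5.39 CPM. Others were higher in WT. HSPA5 was at 488 and 497 CPM in H2O and 781 and 813 CPM in WT, and MANF at 30.1 and 33.7 and 57.4 and 59.3 CPM. The batches were scaled separately and counted differently, so batch, counting and culture cannot be told apart.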
